A study of Mus musculus with 6 samples.

Results

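Aminotransferases and serine dehydratases are the enzymes with which the liver strips nitrogen from amino acids, and their transcripts were followed here in livers of fasted and fed mice. The group holds 10 genes, found by symbol in the deposited expression table, out of 22481 symbols in all. They are Got1, Got2, Gpt, Gpt2, Tat, Oat, Agxt and Agxt2, which move amino groups, and Sds and Sdsl, which belong to the serine dehydratases. All 10 passed the filter on low counts. The animals were male C57BL/6J mice, an inbred laboratory strain, aged 10 weeks. Fasted mice had gone 16 h without food when the liver was taken, and fed mice had free access to food. Each state is represented by 3 libraries of total liver RNA from which ribosomal RNA had been removed. The labels do not tie a library to a mouse, so that p-values measure only the spread between these libraries, which may be technical.

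An aminotransferase uses pyridoxal phosphate, the active form of vitamin B6, to pass the amino group of an amino acid to a keto acid, most often to 2-oxoglutarate, which becomes glutamate. Alanine gives pyruvate and aspartate gives oxaloacetate, so these reactions feed carbon into glucose synthesis and nitrogen into the urea cycle. Several of the enzymes exist as a cytosolic and a mitochondrial form encoded by separate genes, and the aspartate aminotransferase pair also carries reducing equivalents in the malate-aspartate shuttle. Serine dehydratase splits serine into pyruvate and ammonia. Tat and Sds are long known as liver genes that respond to glucocorticoids and glucagon.

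The genes were located by their identifiers in the GENCODE M21 annotation of the mouse build GRCm38. Got1 (ENSMUSG00000025190) lies on chromosome 19 at 43499752 to 43524605 and Got2 (ENSMUSG00000031672) on chromosome 8 at 95864134 to 95888547, both on the minus strand. Gpt (ENSMUSG00000022546) lies on chromosome 15 at 76695716 to 76699686 and Gpt2 (ENSMUSG00000031700) on chromosome 8 at 85492576 to 85527560, both on the plus strand. Chromosome 8 also holds Tat (ENSMUSG00000001670) at 109990437 to 109999803. Sds (ENSMUSG00000029597) at 120476526 to 120483932 and Sdsl (ENSMUSG00000029596) at 120458186 to 120472810 are neighbours on chromosome 5. They run in opposite directions with 3715 bases between their starts. Oat (ENSMUSG00000030934) lies on chromosome 7 at 132557478 to 132576398, Agxt (ENSMUSG00000026272) on chromosome 1 at 93135240 to 93145421 and Agxt2 (ENSMUSG00000089678) on chromosome 15 at 10358532 to 10410153.

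RefSeq promoter windows, 250 bases before to 50 after the gene start on build GRCm38.p6, were matched for 7 of the 10 genes, with a pair of windows for Agxt2. The windows of Got1 and Got2 are shown since this pair differed most in response among the 3 pairs of related genes, and those of Gpt2 and Tat since Gpt2 rose and Tat is the most abundant of the group. Each runs 5′ to 3′ along the gene, and capitals mark the CCAAT box (CCAAT, on either strand) and the GC box (GGGCGG, on either strand).
Got1, chr19:43524556-43524855, minus strand: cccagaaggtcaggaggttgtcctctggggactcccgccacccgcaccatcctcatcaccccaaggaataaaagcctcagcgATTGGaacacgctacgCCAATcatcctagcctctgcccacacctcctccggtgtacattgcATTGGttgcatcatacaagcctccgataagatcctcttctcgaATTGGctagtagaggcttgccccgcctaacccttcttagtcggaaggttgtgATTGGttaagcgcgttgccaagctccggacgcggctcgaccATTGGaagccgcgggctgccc
Got2, chr8:95888352-95888651, minus strand: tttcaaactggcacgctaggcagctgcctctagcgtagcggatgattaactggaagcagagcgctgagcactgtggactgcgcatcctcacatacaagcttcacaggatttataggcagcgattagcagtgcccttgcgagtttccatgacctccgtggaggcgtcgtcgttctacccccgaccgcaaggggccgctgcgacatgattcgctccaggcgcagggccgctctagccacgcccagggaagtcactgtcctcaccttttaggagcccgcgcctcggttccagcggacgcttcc
Gpt2, chr8:85492326-85492625, plus strand: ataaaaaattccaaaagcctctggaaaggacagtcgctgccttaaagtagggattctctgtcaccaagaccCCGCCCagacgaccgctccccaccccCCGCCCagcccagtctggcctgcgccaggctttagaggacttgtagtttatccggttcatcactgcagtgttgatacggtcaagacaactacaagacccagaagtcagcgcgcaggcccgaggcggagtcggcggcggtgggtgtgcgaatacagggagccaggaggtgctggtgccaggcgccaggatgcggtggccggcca
Tat, chr8:109990186-109990485, plus strand: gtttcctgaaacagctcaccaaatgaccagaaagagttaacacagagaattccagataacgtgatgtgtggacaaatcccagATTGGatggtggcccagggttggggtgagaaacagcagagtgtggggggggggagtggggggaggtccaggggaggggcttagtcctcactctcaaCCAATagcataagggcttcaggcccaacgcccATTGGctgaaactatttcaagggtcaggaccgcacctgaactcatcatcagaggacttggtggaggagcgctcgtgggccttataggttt
The Got1 window held 6 CCAAT boxes, the Tat window 3 and the Oat window 2, while the windows of Got2, Gpt2, Agxt and Agxt2 held 0. At least 1 CCAAT box stood in 37.4% of the 32851 mouse windows searched, at least 3 in 3.37% and at least 6 in 0.0791%. GC boxes occurred in the windows of Gpt2 and Oat, against 35.7% of all windows. Letters of hormone response motifs were searched as well, on both strands. The cAMP response element TGACGTCA (1.79% of all windows), the palindromic glucocorticoid response element (0.00913%), the FOXO site GTAAACA (3.65%), the C/EBP palindrome TTGCGCAA (0.183%), the PPAR direct repeat (0.0396%) and the E-box CACGTG (7.15%) were not in any of the 8 windows. Nor was TATAAA, which was searched along the gene only and stood in 8.32% of windows. The shorter TGACG, which the cAMP response element contains, was in the Oat window and in 20.8% of all windows, and TGTTCT, which the glucocorticoid response element contains, was in the Agxt window and in 19% of all windows. These matches describe letters in short windows and not binding sites. The windows of Got2 and Oat held 24 and 22 CpG dinucleotides, those of Tat and Agxt 5 and 3, and the median over all windows was 7.

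Counts summed over all genes to between 11158014 and 11639393 in the fasted libraries and between 12289654 and 14771826 in the fed libraries. Of 11633 genes tested, 293 (2.52%) differed between fasted and fed livers at an adjusted p under 0.05 in the quasi-likelihood test of edgeR, 1.41% being higher and 1.11% lower in fasted livers. With limma on FPKM the split of the calls leaned the other way, 43.3% of them being higher against 56.0% in edgeR. Fasted and fed libraries were fully separated for 29% of genes, 15.3% with the fasted libraries on top and 13.7% with them below. Levels are given as CPM, counts scaled to the library total, except where genes are compared with each other, where FPKM, which takes transcript length into account, is used. The fed libraries differed among themselves in acute phase genes, which the liver raises in inflammation. The mean log2 CPM of 21 such genes was 10.99, 11.11 and 10.2 in fasted libraries 1, 2 and 3 and 8.52, 11.37 and 12.44 in fed libraries 1, 2 and 3. Alb, the albumin gene, was listed at 0 in fed library 2 and at 396733 to 747036 counts in the other 5 libraries, a doubtful value.

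Of 10 hepatocyte markers listed, 9 were in the table. They summed to 115611 to 143502 CPM in fasted and 57024 to 99502 CPM in fed libraries, the lowest being fed library 2 with its missing Alb. Alb by itself gave 50246 to 72566 CPM of these sums in fasted and 0 to 50409 CPM in fed libraries. Without Alb the summed ranges of the groups overlapped. Kupffer cell markers summed to 404 to 601 CPM in fasted and 409 to 546 CPM in fed libraries, endothelial markers to 243 to 322 and 257 to 356 CPM, and stellate cell markers to 175 to 256 and 200 to 238 CPM. Cholangiocyte markers had separate ranges too, at 13.7 to 30.1 CPM in fasted and 34.2 to 542 CPM in fed libraries. So had pancreas markers, at 2.65 to 5.36 CPM in fasted and 5.54 to 30.0 CPM in fed libraries. Kidney markers summed to at most 0.583 CPM in fasted and 1.69 CPM in fed libraries, with 5 of 6 at 0 throughout. Markers of neutrophils (23.9 to 111 and 9.74 to 155 CPM), lymphocytes (9.86 to 16.6 and 12.9 to 23.2 CPM), red cells (137 to 220 and 76.9 to 242 CPM) and fat (0 to 0.194 and 0 to 3.29 CPM), each with fasted before fed, completed the check. In whole liver, fewer cells of a type and less RNA per cell cannot be told apart. The part of these markers in the results was not tested.

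Of the 10 transcripts, Got1 and Gpt2 rose in fasted livers at an adjusted p under 0.05 and none fell, against 1.41% and 1.11% of all tested genes. No member was lower at an unadjusted p under 0.05 either, nor with DESeq2 or limma. At an unadjusted p under 0.05 there were 7 higher members, where 11% of all tested genes were higher and 10.8% lower. The fasted values lay wholly above the fed values for those same 7 genes, Got1, Got2, Gpt, Gpt2, Tat, Sds and Oat, where 15.3% of all tested genes did so. The median log2 fold change was 1.14 over the members and -0.02 over all genes tested. DESeq2 placed Tat, Sds and Oat past the threshold too (adjusted p = 6.48e-06, 0.000291 and 0.000557), which in edgeR had adjusted p of 0.0593, 0.0575 and 0.0783. DESeq2 called 4.4% of its 12646 genes higher and 3.93% lower, and limma 0.603% and 0.789% of its 11277 genes. The count of called members was 1, 0 and 1 without fasted libraries 1, 2 and 3 and 4, 0 and 4 without fed libraries 1, 2 and 3. Over all genes the same removals gave 33, 3 and 30 calls and 498, 13 and 754 calls, of 11728 to 11950 genes tested.

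**Figure D1:**
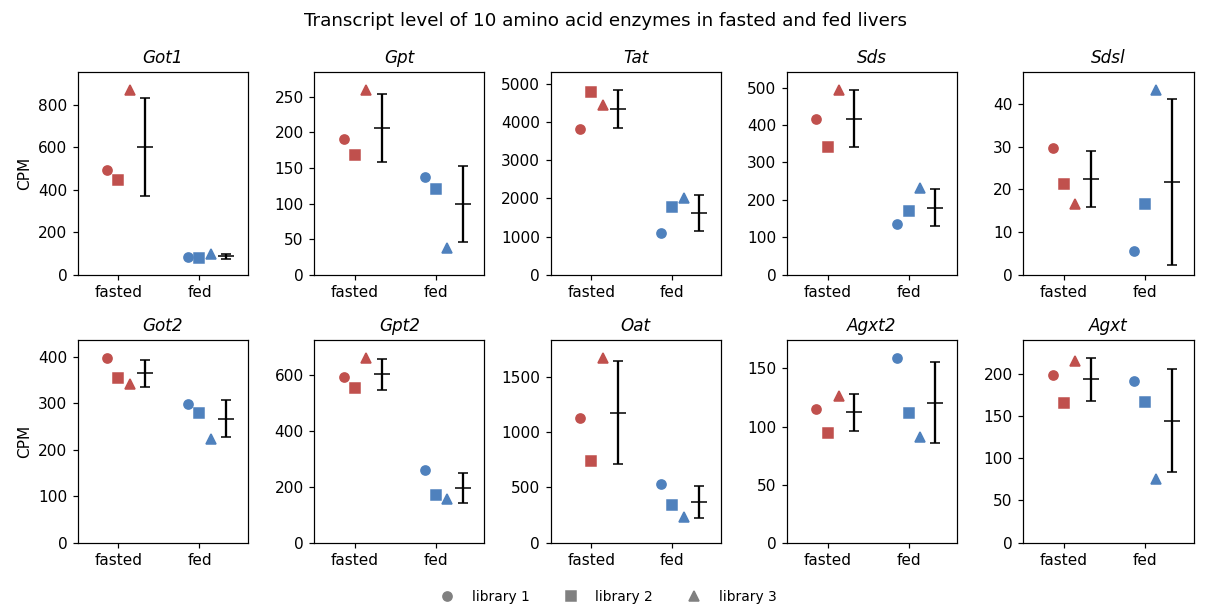
Level of each transcript in CPM (vertical axis, from 0) in the 3 fasted and 3 fed libraries, with cytosolic enzymes in the upper row and mitochondrial or peroxisomal enzymes in the lower row. Symbols mark the library and bars the mean ± SD; fasted and fed values are separate for 7 genes and overlap for Sdsl, Agxt2 and Agxt.

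Got1, the cytosolic aspartate aminotransferase, showed the largest change of the group. Fasted libraries 1, 2 and 3 held 493, 448 and 868 CPM and fed libraries 1, 2 and 3 held 81.3, 79.0 and 98.7 CPM. All fasted libraries were several times above all fed ones, the fed values lay close together, and fasted library 3 stood above its group. The rise was 6.99-fold, or 2.81 ± 0.30 on the log2 scale (SE; edgeR adjusted p = 0.0119). By its p-value Got1 ranked 22 among the 11633 genes tested. The call was lost without fasted library 2 (adjusted p = 0.0688) and without fed library 2 (0.0834), while the log2 fold change stayed between 2.43 and 2.99 over 16 other settings.

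Got2 encodes the mitochondrial aspartate aminotransferase. It was at 397, 354 and 342 CPM in fasted libraries 1, 2 and 3 and at 299, 279 and 223 CPM in fed libraries 1, 2 and 3. The groups did not overlap, but they were close, and the difference of 1.36-fold did not pass the test (0.45 ± 0.18 on the log2 scale, SE; edgeR adjusted p = 0.216). Got2 also varied least of the 10 genes among fasted libraries, with a coefficient of variation of 7.99%.

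The ratio of Got1 to Got2 was therefore read in each library. In FPKM it was 1.61, 1.67 and 3.17 in fasted libraries 1, 2 and 3 and 0.373, 0.376 and 0.573 in fed libraries 1, 2 and 3. The cytosolic transcript was the more abundant of the pair in each fasted library and the less abundant in each fed library. On counts the ratio was 4.90-fold higher in fasted livers, a log2 difference of 2.29 with means of 0.67 ± 0.59 in fasted and -1.63 ± 0.39 in fed livers (SD, n = 3 each; exact two-sided permutation p = 0.1, the smallest that 3 against 3 libraries allow; 0.3 when adjusted over 3 gene pairs). Leaving out any library kept the log2 difference between 1.95 and 2.52.

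Gpt and Gpt2 encode the cytosolic and the mitochondrial alanine aminotransferase, which turn alanine into pyruvate. Gpt2 was at 594, 553 and 660.5 CPM in fasted libraries 1, 2 and 3 and at 259, 170 and 158 CPM in fed libraries 1, 2 and 3. The lowest fasted value was above the highest fed value, and the fasted libraries were close to each other. Gpt2 rose 3.08-fold (1.62 ± 0.24 on the log2 scale, SE; edgeR adjusted p = 0.0246). Gpt2 still passed when fed library 1 or 3 was removed. It no longer passed when fed library 2 or one of the fasted libraries was removed, and its adjusted p then ran from 0.0938 to 0.124, although the log2 fold change stayed between 1.49 and 1.85.

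Gpt was at 191, 168 and 259 CPM in fasted libraries 1, 2 and 3 and at 138, 121 and 37.9 CPM in fed libraries 1, 2 and 3. Fed library 3 lay far below the other fed libraries, which were not far under fasted library 2. The estimate of 2.08-fold did not pass (1.06 ± 0.45 on the log2 scale, SE; edgeR adjusted p = 0.226). Without fed library 3 the log2 fold change of Gpt was 0.68.

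The balance of the alanine pair did not separate the groups. The FPKM ratio of Gpt to Gpt2 was 0.692, 0.650 and 0.833 in fasted libraries 1, 2 and 3 and 1.15, 1.47 and 0.522 in fed libraries 1, 2 and 3. The mitochondrial transcript was the more abundant in the fasted libraries and in fed library 3, and the cytosolic one in fed libraries 1 and 2. The log2 difference on counts was -0.41 (exact two-sided permutation p = 0.4 for 3 against 3 libraries, 0.4 when adjusted over the pairs), and it was -0.87 without fed library 3 and -0.08 without fed library 2.

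**Figure D2:**
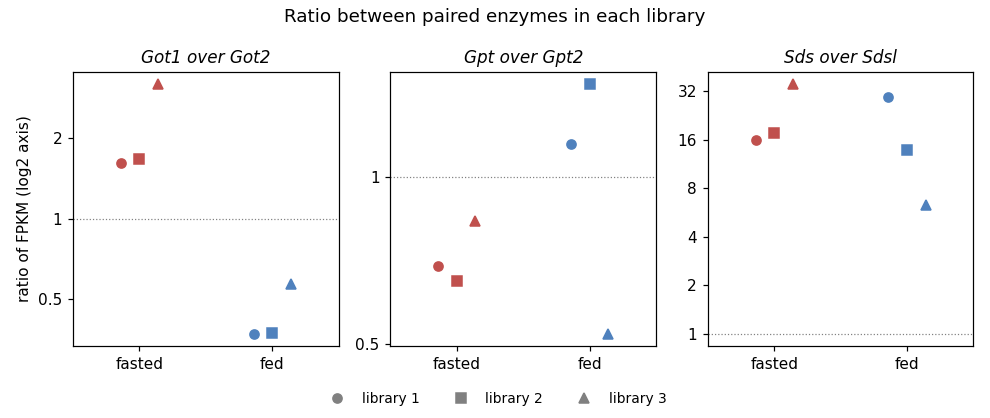
FPKM ratio between paired genes in each library (log2 vertical axes, dotted line at 1), with fasted libraries left of fed libraries and symbols for the library number. For Got1 over Got2 the fasted libraries lie between 1.61 and 3.17 and the fed libraries between 0.373 and 0.573, while for Gpt over Gpt2 and Sds over Sdsl the groups overlap.

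Tat, the tyrosine aminotransferase of the cytosol, carries out the first and limiting step of tyrosine breakdown and was the most abundant member by FPKM in all 6 libraries. It was at 3805, 4774 and 4436 CPM in fasted libraries 1, 2 and 3 and at 1098, 1767 and 2013 CPM in fed libraries 1, 2 and 3. The groups were well apart, with fed library 1 lowest. Their means were 4338 ± 492 CPM in fasted and 1626 ± 474 CPM in fed livers (SD, n = 3 each), a difference of 2.67-fold that missed the threshold (1.42 ± 0.30 on the log2 scale, SE; edgeR adjusted p = 0.0593). Tat passed without fed library 1 (adjusted p = 0.0390) and without fed library 3 (0.0285). With any other library removed, its edgeR adjusted p rose to between 0.147 and 0.212.

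Sds, the serine dehydratase that gives pyruvate directly, was at 416, 341 and 493 CPM in fasted libraries 1, 2 and 3 and at 135, 170 and 232 CPM in fed libraries 1, 2 and 3. The groups did not overlap. The estimate was 2.33-fold (1.22 ± 0.25 on the log2 scale, SE; edgeR adjusted p = 0.0575), and Sds passed without fed library 3 (adjusted p = 0.0183). With any other library removed, Sds did not pass (edgeR adjusted p from 0.0625 to 0.214). Its annotated span overlaps that of Plbd2, a gene on the opposite strand, by 651 bases. Plbd2 was itself at 75.1 to 86.6 CPM in fasted and 31.9 to 58.7 CPM in fed libraries, and the sources used here do not say whether reads were counted by strand.

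Sdsl, the relative of Sds next to it on chromosome 5, had the lowest mean level of the members in both groups, although in fed library 3 it was above Gpt. It was at 29.6, 21.2 and 16.7 CPM in fasted libraries 1, 2 and 3 and at 5.57, 16.5 and 43.2 CPM in fed libraries 1, 2 and 3. The fed values enclosed the fasted ones, and they spread 7.76-fold, the widest range of any member. The log2 fold change was 0.05 with an SE of 0.63 (edgeR adjusted p = 0.968). Among fed libraries Sdsl was lowest where acute phase genes were lowest, in fed library 1, and highest where these were highest, in fed library 3; the part of this in the result was not tested. The FPKM ratio of Sds to Sdsl was 15.8, 17.7 and 35.3 in fasted libraries 1, 2 and 3 and 29.5, 13.7 and 6.33 in fed libraries 1, 2 and 3. These groups overlapped (log2 difference on counts 0.77, exact two-sided permutation p = 0.4, adjusted 0.4).

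Oat, the mitochondrial ornithine aminotransferase, links ornithine to glutamate and proline. It was at 1123, 735 and 1666 CPM in fasted libraries 1, 2 and 3 and at 526, 343 and 235 CPM in fed libraries 1, 2 and 3. Each fasted value was above each fed value, but both groups were spread, with means of 1174 ± 468 CPM in fasted and 368 ± 147 CPM in fed livers (SD, n = 3 each). The estimate of 3.19-fold was larger than that of Gpt2 and did not pass (1.67 ± 0.40 on the log2 scale, SE; edgeR adjusted p = 0.0783), except without fed library 1 (adjusted p = 0.0403). With any other library removed, the edgeR adjusted p of Oat ran from 0.0737 to 0.249. Oat lies within the annotated span of Fgfr2 on the same strand, and Fgfr2 was at 11.8 to 18.3 CPM in fasted and 19.5 to 33.4 CPM in fed libraries.

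Agxt and Agxt2 use glyoxylate as an acceptor. Agxt, found in peroxisomes and, in the mouse, also in mitochondria, clears glyoxylate, and was at 199, 166 and 216 CPM in fasted libraries 1, 2 and 3 and at 191, 167 and 75.8 CPM in fed libraries 1, 2 and 3. Fed libraries 1 and 2 lay within the fasted range and fed library 3 well under it. The log2 fold change was 0.42 with an SE of 0.33 (edgeR adjusted p = 0.501). Agxt2, a mitochondrial enzyme that also acts on beta-aminoisobutyrate and dimethylarginines, was at 115, 94.7 and 126 CPM in fasted libraries 1, 2 and 3 and at 159, 111 and 91.0 CPM in fed libraries 1, 2 and 3. It was the 1 member with an estimate below 0 (-0.10 ± 0.23 on the log2 scale, SE; edgeR adjusted p = 0.833), and its groups overlapped fully. An annotated gene that overlaps Agxt2 on its own strand, Gm21973, held at most 1 count in any library.

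**Figure D3:**
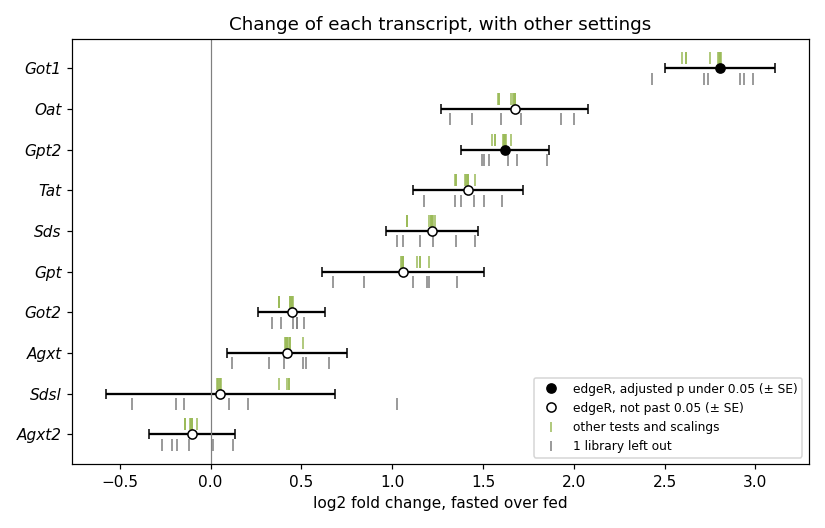
Log2 fold change of each transcript, fasted over fed (horizontal axis), with the standard error; filled points passed an adjusted p of 0.05 in edgeR. Ticks above and below each point give the same estimate under other tests and scalings and with 1 library left out. Got1 lies between 2.43 and 2.99 throughout, and Sdsl and Agxt2 have ticks on both sides of 0.

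By FPKM, the order of levels in fasted livers was Tat, Oat, Sds, Got1, Gpt2, Got2, Agxt, Gpt, Agxt2 and Sdsl, with means of 1788, 519, 386, 293, 156, 136, 124, 114, 52.7 and 18.1 FPKM. Tat stood apart from Oat, Got1 from Gpt2, Gpt from Agxt2 and Agxt2 from Sdsl, while the ranges of all other neighbours in this order overlapped. In fed livers the order was Tat, Sds, Oat, Got2, Agxt, Agxt2, Gpt, Gpt2, Got1 and Sdsl, with means of 716, 181, 175, 107, 100.2, 60.0, 59.5, 54.3, 45.3 and 17.3 FPKM. Only Tat at the top and Got1 above Sdsl at the bottom were apart from their neighbour there. Got1 thus stood at position 4 in fasted and position 9 in fed livers.

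The 10 transcripts together reached 3220, 3318 and 4221 FPKM in fasted libraries 1, 2 and 3 and 1471, 1627 and 1445 FPKM in fed libraries 1, 2 and 3. As a share of the scaled library total they took 0.736%, 0.765% and 0.908% of counts in fasted libraries and 0.289%, 0.322% and 0.321% in fed libraries. Tat made up the largest part of the summed FPKM in each library, 44.2% to 58.7% in fasted and 34.5% to 57.2% in fed libraries. The part of Got1 was 6.50% to 10.2% in fasted and 2.60% to 3.23% in fed libraries. That of Got2 was 3.22% to 4.47% in fasted and 5.64% to 8.53% in fed libraries, although the level of Got2 itself was not lower in any fasted library than in a fed one.

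**Figure D4:**
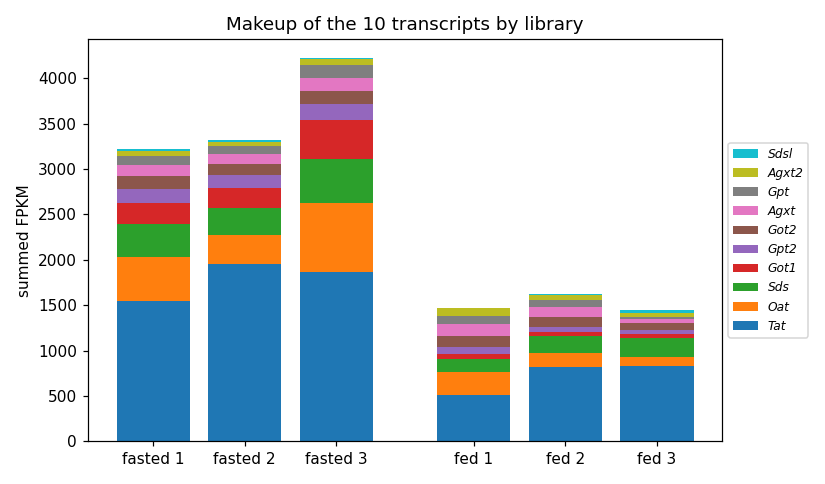
Summed FPKM of the 10 transcripts (vertical axis, from 0) in each library, fasted libraries on the left and fed libraries on the right, stacked by gene with Tat at the base. The fasted sums run from 3220 to 4221 FPKM and the fed sums from 1445 to 1627 FPKM.

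The coefficient of variation of CPM was larger among fed than among fasted libraries for 9 of the 10 genes, all but Got1. For Oat it was nearly equal (39.84% in fasted and 39.97% in fed livers), and for Sds the order turns round in FPKM (24.0% in fasted and 18.5% in fed livers). The median coefficient of variation of the members was 16.2% in fasted and 29.0% in fed livers, against 15.02% and 18.98% over all genes tested. Of the fed libraries, library 3 was the lowest for 6 members, namely Got2, Gpt, Gpt2, Oat, Agxt and Agxt2. It was the lowest fed library for 39.4% of all tested genes. Library 1 was the lowest for Tat, Sds and Sdsl. The same library 3 had the highest acute phase level, and library 1 the lowest; the part of this difference in the values was not tested. The members most alike in pattern over the 6 libraries were Tat and Sds, with a root-mean-square difference of 0.26 between their centred log2 CPM, followed by Gpt2 and Oat at 0.30 and Got2 and Agxt at 0.32. The members least alike were Gpt and Sdsl.

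**Figure D5:**
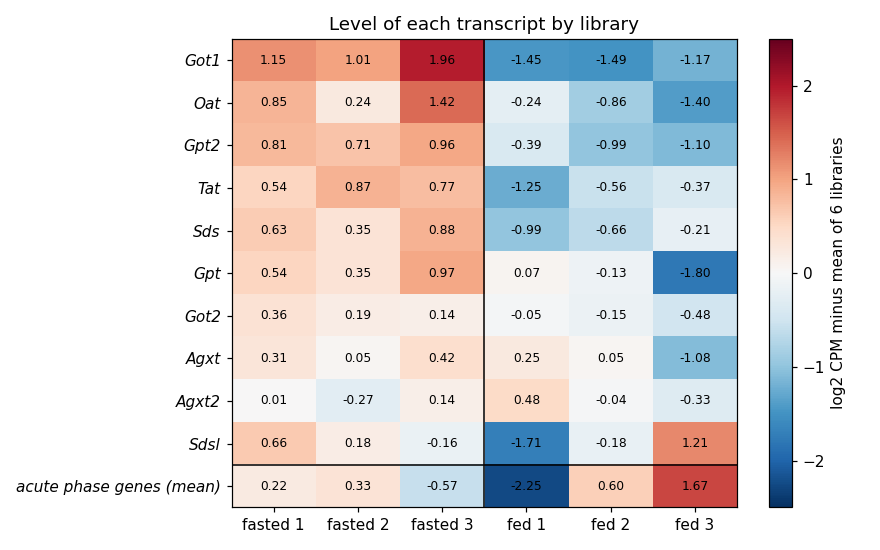
Log2 CPM of each transcript minus its mean over the 6 libraries, with the mean of 21 acute phase genes in the last row; fasted libraries stand left of fed libraries and red is above the mean. Got1 runs from 1.01 to 1.96 in fasted and from -1.49 to -1.17 in fed libraries, and Sdsl runs from -1.71 to 1.21 within the fed group.

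Outside the group, likeness to each member was measured in the same way over 7654 genes with a mean count of at least 100. Closest to Got1 were Sorbs3, Fmo2 and Usp2, at root-mean-square differences of 0.33, 0.35 and 0.39 in log2 CPM. Closest to Gpt2 were Ech1 (0.10), Inca1 (0.12) and Cpt1a (0.16). Tat was closest to Nrbp2 (0.11), Cyp3a13 (0.14) and Ctsl (0.15), and Sds to Slc25a22 (0.15), Apoa5 (0.16) and Baiap2l1 (0.17). The gene nearest to Got2 was Dis3l2, at 0.04, that to Gpt was Sardh, at 0.13, and that to Sdsl was Acpp, at 0.24. For Oat it was Hsd17b11, at 0.23, for Agxt it was Aldh7a1, at 0.07, and for Agxt2 it was Ndufa13, at 0.04. No member of the 10 other than Got1 had its nearest genes farther than 0.29 away. The 6 libraries are shared by all these genes, so the values describe likeness only.

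Genes around the aminotransferases were read from lists. Over all genes tested, edgeR called 1.41% higher and 1.11% lower, DESeq2 4.4% and 3.93%, and limma 0.603% and 0.789%. At an unadjusted p under 0.05 in edgeR the shares were 11% and 10.8%. Each list count below stands beside these shares. Among the enzymes of glutamate, glutamine and ammonia 1 of 11 tested members rose and none fell, with a median log2 fold change of 0.81. It was Asl, which splits argininosuccinate and so releases arginine, with the nitrogen that aspartate brought in at the step before. It was at 1215 ± 225 CPM in fasted and 190 ± 54.4 CPM in fed livers (SD, n = 3 each; 6.38-fold, edgeR adjusted p = 0.0124). Ass1, which joins aspartate to citrulline and was chosen after its values were seen, was at 2235, 2050 and 3007 CPM in fasted and 1094, 1006 and 405 CPM in fed libraries 1, 2 and 3, without overlap (2.91-fold, edgeR adjusted p = 0.0938). DESeq2 placed 5 of these 11 higher, against 4.4% of all its genes, and limma 1, Asl.

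On the way from pyruvate to glucose 3 of 12 tested genes rose and none fell in edgeR, against 1.41% and 1.11% of all tested genes. The median log2 fold change was 0.61. Limma called 1 higher, Slc37a4, against 0.603% of its genes. DESeq2 called 5 higher and 1 lower, against 4.4% and 3.93% of its genes. The lower gene was Pklr, the liver pyruvate kinase, which works against glucose synthesis and is named with its values known. It was at 26.0, 28.7 and 29.6 CPM in fasted and 149, 64.0 and 32.6 CPM in fed libraries 1, 2 and 3 (edgeR adjusted p = 0.136, DESeq2 adjusted p = 0.0192). Mpc1, a subunit of the carrier that brings pyruvate into mitochondria, was at 103 ± 21.9 CPM in fasted and 38.1 ± 10.0 CPM in fed livers (SD, n = 3 each; 2.72-fold, edgeR adjusted p = 0.0347). Pck1, which turns oxaloacetate into phosphoenolpyruvate, rose 2.51-fold (edgeR adjusted p = 0.0404), and Slc37a4, the glucose 6-phosphate carrier, 2.42-fold (0.0190). Of the amino acid carriers 1 of 8 rose and none fell in edgeR, where 1.41% of all tested genes were called higher. DESeq2 called 3 carriers higher, against 4.4% of all its genes, and limma 1. The carrier that passed in edgeR and in limma was Slc7a2, which carries arginine, lysine and ornithine. Slc7a2 was at 1105 ± 283 CPM in fasted and 254 ± 36.0 CPM in fed livers (SD, n = 3 each; 4.35-fold, edgeR adjusted p = 0.0170).

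Of the glyoxylate and proline enzymes DESeq2 called 1 higher and 1 lower, against 4.4% and 3.93% of its genes, and limma none. In edgeR 1 of 8 rose and none fell, against 1.41% and 1.11% of all tested genes. It was Hoga1, which yields glyoxylate and pyruvate in the breakdown of hydroxyproline, at 136 ± 15.2 CPM in fasted and 59.6 ± 8.73 CPM in fed livers (SD, n = 3 each; 2.27-fold, edgeR adjusted p = 0.0219, limma adjusted p = 0.0550). Hao1, a peroxisomal oxidase that forms glyoxylate, did not pass, and it is named with its values known. It was at 141, 119 and 108 CPM in fasted and 377, 204 and 316 CPM in fed libraries 1, 2 and 3 (log2 fold change -1.28, edgeR adjusted p = 0.0503), and it is the gene that DESeq2 called lower (adjusted p = 0.000106).

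Of other aminotransferases and related enzymes, some of which are not themselves aminotransferases, none of the 9 tested passed in edgeR. At an unadjusted p under 0.05 there were 1 higher and 1 lower, and DESeq2 placed 1 lower and limma none. Abat, which breaks down gamma-aminobutyrate, was at 360, 320 and 463 CPM in fasted and 269, 191 and 93.0 CPM in fed libraries 1, 2 and 3 (edgeR adjusted p = 0.167). Ccbl2, a kynurenine aminotransferase, was at 99.3, 76.3 and 109 CPM in fasted and 186, 129 and 172 CPM in fed libraries 1, 2 and 3, without overlap (edgeR adjusted p = 0.0981). Of the 13 serine, glycine and threonine enzymes none passed in edgeR, while 2 higher and 3 lower had an unadjusted p under 0.05, DESeq2 placed 2 higher and 2 lower, and limma none. Cth, which splits cystathionine, was at 846 ± 150 CPM in fasted and 180 ± 114 CPM in fed livers (SD, n = 3 each; 4.69-fold, edgeR adjusted p = 0.0888), and Cbs, which makes cystathionine, at 405 ± 65.8 CPM and 351 ± 38.8 CPM (edgeR adjusted p = 0.581).

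In phenylalanine and tyrosine breakdown around Tat none of 7 genes passed in edgeR, 1 was higher at an unadjusted p under 0.05, DESeq2 placed 1 higher and limma none. Hpd, the dioxygenase that takes the product of Tat, was at 2306, 2173 and 3197 CPM in fasted and 1215, 912 and 417 CPM in fed libraries 1, 2 and 3 (3.02-fold, edgeR adjusted p = 0.0916). Gstz1, a later isomerase of the route, was at 696 ± 76.5 CPM in fasted and 494 ± 149 CPM in fed livers (edgeR adjusted p = 0.318). Of 6 genes listed for the malate-aspartate shuttle, other than Got1 and Got2, none passed in edgeR, DESeq2 or limma. All 6 estimates lay above 0. The list took in Slc25a10, a dicarboxylate carrier outside the shuttle, named after its values were seen. The 2 genes higher at an unadjusted p under 0.05 were Slc25a13 and Slc25a10 (edgeR unadjusted p = 0.0202 and 0.0318). The aspartate-glutamate carrier Slc25a13 had an estimate of 1.94-fold (edgeR adjusted p = 0.152) and the cytosolic malate dehydrogenase Mdh1 of 1.05-fold (0.926). Of 4 genes that supply pyridoxal phosphate none passed in edgeR or limma, and 1 was lower at an unadjusted p under 0.05 and with DESeq2. It was Pdxk, the pyridoxal kinase, named after its values were seen, at 22.6 ± 1.07 CPM in fasted and 39.4 ± 7.86 CPM in fed livers (SD, n = 3 each; edgeR adjusted p = 0.0590). Prosc, a pyridoxal phosphate binding protein, was at 55.9 ± 8.73 CPM in fasted and 45.6 ± 6.74 CPM in fed livers (SD, n = 3 each; edgeR adjusted p = 0.364).

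Among 12 regulators known to act on genes of this kind DESeq2 called 4 higher, against 4.4% of its genes, and limma none. In edgeR 1 rose and none fell, against 1.41% and 1.11% of all tested genes. It was Crtc2, a coactivator of CREB, at 34.5 ± 1.496 CPM in fasted and 18.5 ± 2.63 CPM in fed livers (SD, n = 3 each; 1.86-fold, edgeR adjusted p = 0.0321, limma adjusted p = 0.0630). Ppargc1a, a coactivator of fasting genes that was chosen after its values were seen, was at 21.3, 21.7 and 26.5 CPM in fasted and 6.77, 0.497 and 4.95 CPM in fed libraries 1, 2 and 3 and did not pass (edgeR adjusted p = 0.0955). The zones of the liver lobule were read from marker lists, since Sds is known from the periportal zone and Oat from the pericentral zone. Of 9 periportal genes Hsd17b13 and Pck1 rose and none fell in edgeR, where 1.41% of all tested genes were called higher. DESeq2 called 4 of them higher, against 4.4% of all its genes, and none lower. In limma Hsd17b13 alone passed. The median log2 fold change of the list, 1.15, is the value of Alb with its doubtful 0, and it was 1.07 over the other 8 genes. Of 10 pericentral genes Cyp2e1 rose, 4.33-fold (edgeR adjusted p = 0.0351), and none fell (median 0.11). DESeq2 called 2 pericentral genes higher and none lower, and Cyp2e1 did not pass in limma (adjusted p = 0.0539). Of 21 acute phase genes none passed in edgeR, DESeq2 or limma, 1 being lower at an unadjusted p under 0.05, with 19 estimates below 0 and a median of -0.42.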

How the data were processed

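Liver RNA from 6 libraries was analysed. Per the labels' protocols, Trizol RNA was depleted of ribosomal RNA with Ribo-Zero and made into libraries with the TruSeq Stranded Total RNA kit. CASAVA 1.8, TopHat2 and hg19, a human build, appear in the submitters' processing notes, while the table holds mouse identifiers and 21839 of its 22564 lines match GENCODE M21, all on the same chromosome. The sources used here give neither the counting program nor its use of strand. Per the file headers, the authors deposited FPKM and counts; 1 table line was blank. The deposited values are estimated counts and not raw, since 89.9% to 91.1% of nonzero entries per library came out as whole multiples (tolerance 0.02) of a step between 0.840 and 1.18. They were divided by that step and rounded, and lines that share a symbol (162) were summed.

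Fasted and fed libraries were compared over all genes in edgeR 4.0.16 (R 4.3.3) by quasi-likelihood, with TMM scaling, filterByExpr at a minimum count of 10 and two-sided Benjamini-Hochberg p-values. The standard error is the log2 fold change divided by the square root of F. Log2 CPM used a prior count of 2. The common biological coefficient of variation was 27.9%, and 3 counts corresponded to 0.186 to 0.291 CPM, which covers counting error only. Gene pairs were compared by exact permutation. Fits were tested on simulated data. Alternatives were DESeq2 1.42.0, limma 3.58.1 on log2(FPKM + 0.1) with FPKM of at least 0.5 in 3 libraries, other filters, scalings and pseudocounts, the replicate number as a block, and each library left out. Members and lists were chosen with earlier results of these data known. Named genes are the members, the list genes that passed or, where a list had none, its 2 genes with the highest mean count, and, from the 3 nearest genes to a member by root-mean-square difference (mean count of at least 100, clone names left out), all or fewer. Exceptions are marked, and 1 list gene that the rule selects is not reported here.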

Additional observations from a re-analysis of the deposited data

How the results depend on the processing

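The number of genes called over the whole table depended on the test and on single libraries. It was 1054 with DESeq2, 157 and 181 with limma on log2(FPKM + 0.1) and log2(FPKM + 1), 39 with limma without a filter and 293 in the edgeR test reported. The share of higher genes was 43.3%, 44.2% and 43.6% in those limma fits and 56.0% in edgeR. With 1 library left out the number ran from 3 (without fasted library 2) to 754 (without fed library 3). The members called were 5 with DESeq2, 1 with limma without a filter and 0 to 4 with 1 library left out. Fasted libraries 1, 2 and 3 and fed library 2 were those whose loss cost member calls, and fed libraries 1 and 3 those whose loss added some. The number called over the whole table fell and rose with the same removals. Median-of-ratios factors, no filter in edgeR, robust empirical Bayes, the step not divided out and the removal of Alb, an alternative chosen after seeing the data, each gave 2 called members. The direction of Got1, Got2, Gpt, Gpt2, Tat, Sds, Oat and Agxt was the same in all 16 settings tried. Sdsl ran from -0.43 to 1.02 and Agxt2 from -0.26 to 0.13 in log2 fold change with 1 library left out, so neither has a settled sign. The log2 difference of the pair ratios ran from 1.95 to 2.52 for Got1 over Got2, from -0.87 to -0.08 for Gpt over Gpt2 and from 0.25 to 1.34 for Sds over Sdsl.

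Libraries share replicate numbers in their labels, and deviations from the group mean correlated at -0.07, 0.18 and -0.13 for numbers 1, 2 and 3. Between unlike numbers the correlations ran from -0.26 to 0.29. With 3 libraries per group these values cannot decide whether the numbers pair the samples. With the replicate block edgeR called 29 genes, 1 of them a member, Got1 (adjusted p = 0.0446), while Gpt2 had an adjusted p of 0.0991. The cause of these differences was not tested.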
